A study of Mus musculus with 13 samples.

Results

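IgG plasma cells were taken here as barcodes that carried the plasma cell gene Mzb1 together with a dominant IgG heavy chain. Among barcodes with at least 500 UMIs (unique molecular identifiers, each standing for 1 captured transcript), at least 200 genes and under 25% mitochondrial UMIs, a member had at least 5 Mzb1 UMIs and no UMI of Ms4a1 (CD20, a B cell surface protein) or Cd3e (a T cell receptor subunit). Its Ighg1, Ighg2b, Ighg2c and Ighg3 UMIs made up at least 1% of its UMIs and outnumbered the sum of Igha and Ighm. Of 118892 kept barcodes in 13 libraries, 75 met these conditions, 61 from colon tumors and 14 from adjacent mucosa. The same conditions with Igha leading gave 3715 IgA plasma barcodes, and with Ighm leading gave 1. The members were chosen by their heavy chain UMIs, so the levels of Ighg, Igha, Ighm, Mzb1, Ms4a1 and Cd3e are descriptions and were not tested.

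The study profiled single cells of 10 colon tumors and of 3 samples of adjacent mucosa with 10x Genomics 3′ v3.1 chemistry. All 13 libraries came from C57BL/6J mice that carried ApcMin/+ and p16cis/cis and ate a diet with added methyl donors (vitamin B12, folic acid, betaine and choline), so no control diet or other genotype enters any value below. Colon tumors 1 to 4 and adjacent mucosa 1 share the code of a 20-week animal, colon tumors 5 to 8 and adjacent mucosa 2 that of a 24-week animal, and colon tumors 9 and 10 and adjacent mucosa 3 that of a 23-week animal. Mucosa was dissociated with EDTA and then TrypLE and tumors with a tumor dissociation kit, so tissue and dissociation cannot be told apart. The labels call 7 of the 13 libraries female, but Xist had 2 to 10 UMIs and the Y-linked gene Ddx3y had 2280 to 3985 UMIs in every library, and 2 of the 3 animal codes carry both sexes. Sex was therefore not used. The tumor libraries held 7789 to 11862 barcodes and 57221300 to 93157039 UMIs, and the mucosa libraries 6537 to 15049 barcodes and 84883382 to 116133079 UMIs.

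Plasma cells are B lineage cells that have given up most B cell surface proteins and turned their endoplasmic reticulum to the secretion of 1 antibody. In the gut most plasma cells secrete IgA, which is joined into dimers by the J chain and carried across the epithelium into the lumen, whereas IgG is secreted as a monomer and is bound by Fc receptors and complement. Mice of the C57BL/6 background carry the subclasses IgG1, IgG2b, IgG2c and IgG3, each with its own constant region gene in the heavy chain locus.

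The subclass calls rest on telling these genes apart, so the last 90 coding bases of the secreted forms are shown, the end nearest to where a 3′ library reads. The bases are from GENCODE vM21 on GRCm38 and read 5′ to 3′ on the minus strand of chromosome 12, with capitals where a base differs from Ighg2b at the same position.
Ighg2b, chr12:113306392-113306481: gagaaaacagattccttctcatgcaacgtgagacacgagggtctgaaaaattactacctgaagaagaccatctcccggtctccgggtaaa
Ighg2c, chr12:113287392-113287481: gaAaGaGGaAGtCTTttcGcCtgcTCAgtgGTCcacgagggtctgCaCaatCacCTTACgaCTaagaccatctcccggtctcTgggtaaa
Ighg1, chr12:113328979-113329068: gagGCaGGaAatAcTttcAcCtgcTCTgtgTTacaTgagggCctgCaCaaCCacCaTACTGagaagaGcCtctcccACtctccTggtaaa
Ighg3, chr12:113359668-113359757: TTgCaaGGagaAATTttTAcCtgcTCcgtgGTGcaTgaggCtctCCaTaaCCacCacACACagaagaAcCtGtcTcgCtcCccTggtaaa
Ighg2c differed from Ighg2b at 28 of the 90 bases, Ighg1 at 31 and Ighg3 at 36. Over the coding sequence, 36 of the 948 stretches of 60 bases in Ighg2b (3.80%) also occurred in Ighg2c, and no such stretch was shared by any other pair of the 4 genes. Within those stretches the sequence alone does not tell Ighg2b from Ighg2c.

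The 75 barcodes carried the genes of antibody secretion. Xbp1, the transcription factor that expands the secretory apparatus, had a UMI in 96% of members, against 16.7% of barcodes with Ms4a1 and 22.3% of barcodes with Cd3e. Derl3, which takes part in the disposal of misfolded proteins from the endoplasmic reticulum, had a UMI in 88% of IgG and 87.0% of IgA barcodes, and in at most 1.12% of the T cell barcodes of a library. Jchain was detected in 98.7% and Cd79a, a part of the B cell receptor, in 98.7% of members. Sdc1, which encodes the plasma cell marker CD138, was found in 53.3%, Prdm1 in 38.7% and Irf4 in 33.3%; these last 2 encode transcription factors of plasma cell differentiation. Pax5 and Cd22, which mark B cells, had no UMI in any member. The median depth was 17140 UMIs in members, 2473 in barcodes with Ms4a1 and 3542 in those with Cd3e. How far these differences in detection go with depth was not tested.

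Members ranged from 2045 to 43190 UMIs with a median of 17140, and from 334 to 4743 genes with a median of 1923. Immunoglobulin genes took 11.9% to 81.6% of the UMIs of a member, with a median of 52.6%, and the same median of 52.6% was found in IgA barcodes. The median member had 1522 Ighg and 5 Igha UMIs, whereas the median IgA barcode had 0 Ighg and 1233 Igha UMIs. Free Ighg RNA in the droplets gave a much lower signal. Among barcodes with Cd3e and no Mzb1, an Ighg UMI was seen in 0.171% to 13.8% of barcodes per library at a median depth of 1428 to 5224 UMIs, the highest Ighg share in any such barcode was 0.162%, and none reached 1%.

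At the edges of the rule, Mzb1 ranged from 6 to 599 UMIs with a median of 59, and 5 members had 5 to 9 UMIs. 3 barcodes missed the rule for Mzb1 alone, with 0, 0 and 1 UMI. The Ighg share of the members ranged from 2.49% to 33.9% with a median of 8.29%, and the 2 barcodes that failed on this share alone reached 0.0705% at most. The lowest ratio of Ighg to the sum of Igha and Ighm was 1.40 inside, and the highest was 0.965 among the 13 barcodes that failed on it alone. Between members and the barcodes that failed 1 condition alone, the gap was wide in the Ighg share and narrow in the ratio. Both are conditions of the rule, so these gaps describe where it cut and are no support for it. The condition on Ms4a1 left out 42 barcodes that met every other condition, and the condition on Cd3e left out 1. Of 135282 distinct barcode sequences, 2284 occurred in more than 1 library, 4 of them those of members, and the barcodes with the same sequence elsewhere had 0 Ighg and 0 Mzb1 UMIs.

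Ighg2c led in 30 members (40%), Ighg2b in 27 (36%), Ighg1 in 17 (22.7%) and Ighg3 in 1, from colon tumor 8. In tumors the 61 members were 22 Ighg2c, 22 Ighg2b, 16 Ighg1 and 1 Ighg3, and in mucosa the 14 members were 8 Ighg2c, 5 Ighg2b and 1 Ighg1. All 3 common subclasses occurred in tumors of each animal. All 5 members of adjacent mucosa 3 were Ighg2c, and both members of colon tumor 10 were Ighg2b. With 2 to 12 members in a library, the subclass mix was not compared between libraries.

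Each member expressed almost a single subclass. UMIs of 1 subclass only were present in 63 of 75 members, and in 2 of the other 12 a minor subclass passed 5% of the Ighg UMIs. One, in adjacent mucosa 3, had 338 Ighg2c and 180 Ighg2b UMIs, and the other, in colon tumor 7, had 907 Ighg1 and 80 Ighg2b UMIs. The median Ighg level was 2007 UMIs in Ighg2b members, 1237 in Ighg1 members and 1212 in Ighg2c members, with ranges of 258 to 4212, 197 to 4499 and 199 to 2862 that overlap widely.

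**Figure D1:**
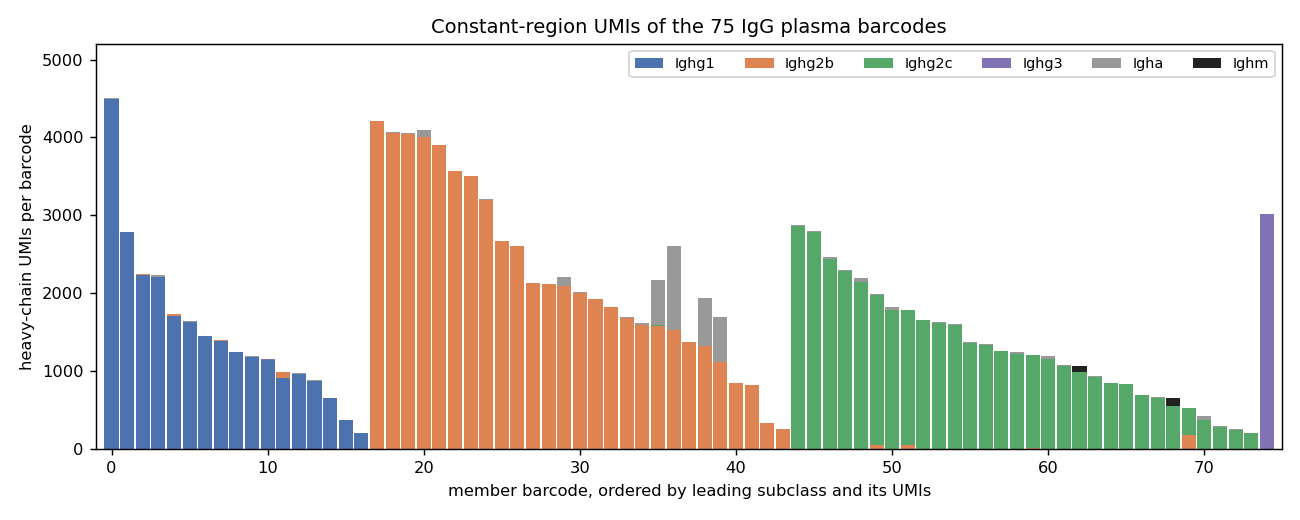
Each bar is 1 of the 75 IgG plasma barcodes, ordered by its leading subclass and the UMIs of that subclass, and its height is the UMIs of Ighg1, Ighg2b, Ighg2c, Ighg3, Igha and Ighm stacked in colors. Most bars have 1 color, and the grey Igha blocks that stand out are on 4 Ighg2b barcodes with at least 500 Igha UMIs.

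Igha was absent from 13 members and at 1 to 31 UMIs in 54. Free Igha RNA was present as well. Among barcodes with Cd3e and no Mzb1, 3.16% to 73.8% per library had an Igha UMI, with means of 0.0333 to 2.61 UMIs. How much of the Igha in members is free RNA was not tested. A further 4 members had 50 to under 500 Igha UMIs and 4 had at least 500. Those 4 had 577 (adjacent mucosa 2), 1088 (colon tumor 1), 621 (colon tumor 5) and 582 (colon tumor 7) Igha UMIs, and all 4 were Ighg2b. None of these 4 had a high doublet score, and 1 to 4 IgA barcodes of the same library had the same leading variable genes. Whether they are single cells with both isotypes or droplets with a pair of cells was not tested. Of all members, 7 of 75 were in the part of barcodes with the highest doublet scores, against 361 of 3715 IgA barcodes. Ighm was above 0 in 4 members and at least 50 in 2, with 104 and 73 UMIs. Both of these were Ighg2c barcodes of colon tumor 7 with the same leading variable genes, Igkv16-104 and Ighv1-18.

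The leading light chain was kappa in all but 4 members. Lambda led in 3 of 61 tumor members and 1 of 14 mucosa members. The mucosa member, from adjacent mucosa 2, had 437 Igkc and 780 lambda UMIs and a high doublet score, and 1 other member, from colon tumor 10, had a minor light chain over 5% (7359 Igkc and 681 lambda UMIs). Across the 10 tumors the lambda share was 3.67% ± 7.77 (SD, n = 10) in IgG and 4.92% ± 2.73 (SD, n = 10) in IgA barcodes, which differed by less than the spread between tumors (exact sign-flip permutation test over tumors, two-sided, p = 0.619, adjusted p = 0.653 over 6 comparisons). The difference of −1.25 percentage points ranged from −2.996 without colon tumor 9 and −2.60 without colon tumor 2 to −0.44 without colon tumor 1 and −0.52 without colon tumor 3.

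The variable genes were diverse. A leading Igkv gene, with at least 3 UMIs and at least 2 times the next, could be assigned in 67 members and comprised 32 genes, and a leading Ighv gene was assigned in 69 and comprised 37 genes. Igkv1-110 led in 8 members from 5 libraries (11.9% of assigned, against 7.07% of IgA barcodes) and Igkv10-96 in 6 from 6 libraries (8.96% against 8.40%). Both genes could be assigned in 63 members, which held 50 different pairs.

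Pairs shared within a library were concentrated in a few tumors. Within tumor libraries, 12 of 171 combinations of 2 IgG barcodes shared both leading genes (7.02%), against 2152 of 451671 combinations of 2 IgA barcodes (0.476%). These combinations came from colon tumor 9 (7 of 45), colon tumor 4 (4 of 15) and colon tumor 7 (1 of 55), and there were none in the other 7 tumors. Colon tumor 9 held 3 Ighg1 barcodes with Igkv12-44 and Ighv8-5, a pair seen in no IgA barcode, and 3 Ighg2c barcodes with Igkv1-110 and Ighv1-81, a pair also found in 49 IgA barcodes of the series. It also held 1 Ighg2c and 1 Ighg2b barcode with Igkv1-117 and Ighv1-55. Colon tumor 4 held 3 Ighg2c barcodes with Igkv4-63 and Ighv1-63 and 2 Ighg1 barcodes with Igkv12-41 and Ighv7-3. Of the 3 barcodes with Igkv4-63 and Ighv1-63, 2 had high doublet scores, as did 1 of the 3 with Igkv1-110 and Ighv1-81. Taken per tumor, the chance that 2 barcodes share both genes was 3.93 percentage points higher in IgG and did not pass the exact sign-flip permutation test (p = 0.41). IgG barcodes of different animals also shared a pair. Igkv1-110 and Ighv1-26 led in colon tumors 1, 7 and 10, and Igkv1-110 and Ighv1-81 in colon tumor 8 as well as 9. Igkv6-15 and Ighv1-82 led in adjacent mucosa 2 and 3. The counts give the gene and not the junction, so whether a shared pair is a clone cannot be told. The chance that 2 barcodes share the leading Igkv gene was 5.43% ± 10.2 (SD, n = 10) in IgG and 2.99% ± 0.385 (SD, n = 10) in IgA, was higher in IgG in 3 of 10 tumors and did not pass the exact sign-flip permutation test (p = 0.498, adjusted p = 0.653). Without colon tumor 4 the difference was 0.130 percentage points, without colon tumor 9 it was 0.558, and with high doublet scores removed it was 1.27, against 2.44 with all. With at least 10 Mzb1 UMIs it was 4.80, and with an isotype share of at least 5% of UMIs 4.47.

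The next comparison asked whether IgG plasma cells were more frequent in tumors than in the mucosa beside them. IgG barcodes were rare in both tissues. They made up 0.0269% to 0.131% of the kept barcodes of a tumor, with a median of 0.0576%, and 0.0386%, 0.0655% and 0.0547% of those of adjacent mucosa 1, 2 and 3. The ranges overlap, and 7 of 10 tumors lay above the mucosa of their own animal. The means were 0.0647% ± 0.0327 (SD, n = 10) and 0.0529% ± 0.0136 (SD, n = 3). The difference within animals of 0.0142 percentage points did not pass an exact permutation test that shuffled labels within animals (p = 0.653, two-sided, 75 assignments, smallest possible p = 0.0133), and without colon tumor 9 it was −0.00318. Colon tumor 9 had the highest share, 12 of 9157 barcodes, with a 95% Clopper-Pearson interval of 0.0677% to 0.229%, which covers counting error only.

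As a share of plasma barcodes, IgG was lower in tumors. The tumor values were 0.581% to 3.72% with a median of 1.81%. The mucosa values were 4.26%, 5.69% and 3.03% and rest on 2, 7 and 5 IgG barcodes. Colon tumor 9 was the only tumor above the mucosa of its own animal, and 9 of 10 tumors lay below. The means were 1.87% ± 0.829 (SD, n = 10) and 4.33% ± 1.33 (SD, n = 3), and the difference within animals was −2.28 percentage points (exact permutation test within animals, two-sided, p = 0.0267, adjusted p = 0.16 over 6 comparisons), so it did not pass after adjustment. Within the animals the difference was −2.63 points at 20 weeks, −4.12 at 24 weeks and −0.0974 at 23 weeks. As a share of kept barcodes, IgG was not lower in tumors, with differences of 0.0180, 0.000128 and 0.0243 points at 20, 24 and 23 weeks. The denominator was larger, with plasma barcodes at 3.73%, 4.27% and 2.39% of kept barcodes in tumors (means) and 0.906%, 1.15% and 1.80% in mucosa. IgA barcodes were 1.23% to 5.47% of kept barcodes in tumors and 0.867% to 1.75% in mucosa. Without the condition on Ms4a1 the difference in the share of plasma barcodes was −1.37 points (p = 0.173, same exact permutation test). With an isotype share of at least 5% of UMIs it was −4.54 points (unadjusted p = 0.04, same exact permutation test). Without adjacent mucosa 1 or 2 it was −2.11 and −1.36 points with 15 assignments left, too few to reach 0.05.

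**Figure D2:**
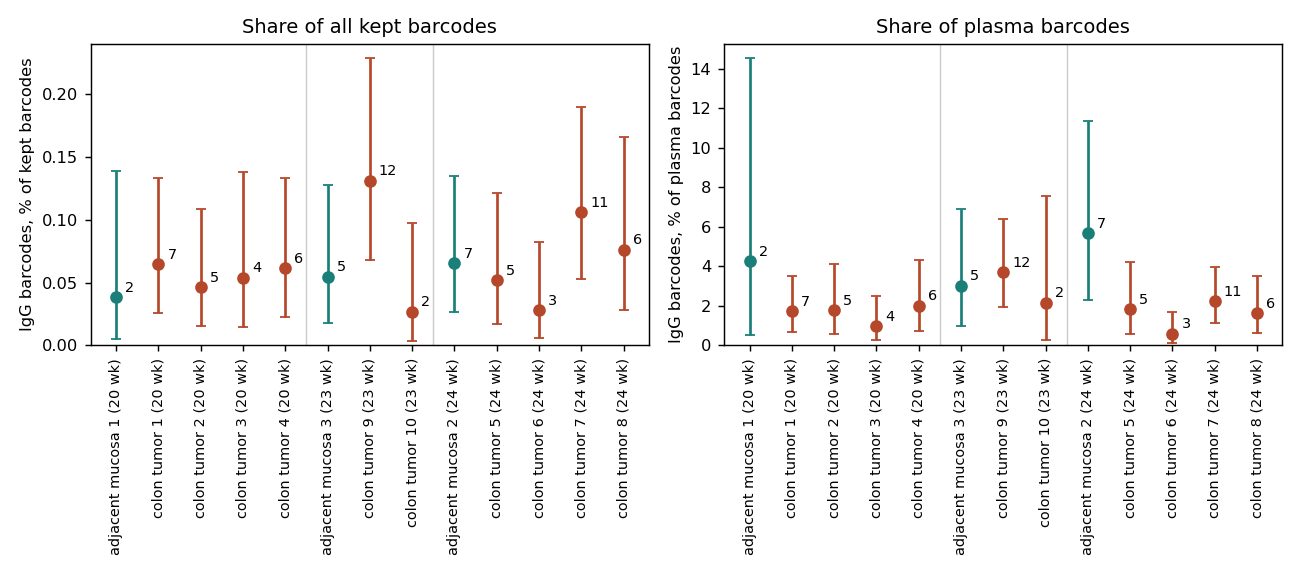
The points give IgG barcodes as a percent of kept barcodes (left) and of IgG, IgA and IgM plasma barcodes (right) in each library, grouped by animal, with mucosa in green, tumors in red, the number of IgG barcodes beside each point and 95% Clopper-Pearson intervals as bars. The intervals of tumor and mucosa overlap on the left, and on the right 9 of 10 tumors lie below the mucosa of the same animal. On the right the intervals also overlap those of the same animal's mucosa, except for colon tumor 6 (0.120% to 1.69%) against adjacent mucosa 2 (2.32% to 11.4%).

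IgG and IgA barcodes of the same tumors were then compared gene by gene, outside the immunoglobulin genes, to ask what else went with the isotype. Only colon tumors 7 and 9 held at least 10 barcodes of each kind, and a fit across all 10 tumors, each with at least 2 IgG barcodes, was added after the data were seen. UMIs were summed per tumor and isotype, with the tumor as a block. They are given as CPM, counts per 1e6 UMIs outside immunoglobulin genes and the rule genes Mzb1, Ms4a1 and Cd3e. The summed IgG depth was 17488 to 111076 UMIs per tumor and the IgA depth 872293 to 4096437, so IgG values are the less precise. Several tumors came from 1 animal, and the spread is between tumors. The test was the quasi-likelihood F test of edgeR, with p-values adjusted over all genes by the method of Benjamini and Hochberg. In the 2 tumors 13 of 8094 genes (0.161%) had an adjusted p under 0.05, 5 higher (0.0618%) and 8 lower (0.0988%) in IgG, while the values of 43.3% of genes did not overlap there. With RLE scaling in place of TMM the split was 9 higher and 8 lower. Across the 10 tumors 67 of 4001 genes (1.67%) passed, 15 higher (0.375%) and 52 lower (1.3%), and 8 of the 13 genes were among the 67, all in the same direction except S100a9, which was higher in the 2 tumors and lower in the 10. Over the 10 tumors the split was 19 higher and 41 lower with RLE scaling, and 25 higher and 673 lower without a filter on low counts. Values below are from the 10 tumors unless the 2 tumors are named.

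Jchain and Ccr10 were lower in IgG barcodes. Jchain, which encodes the chain that joins IgA into dimers, was at 11846 to 81281 CPM with a median of 51450 in IgG barcodes and at 92266 to 135950 CPM with a median of 105931 in IgA barcodes. The ranges do not overlap, which held for 11 of 4001 genes (0.275%), and the log2 fold change was −1.49 (SE 0.19, adjusted p = 2.65e-05). Jchain was nonetheless detected in 61 of 61 tumor members, and the leading barcode held 4.85% of its UMIs there. Ccr10, the receptor for the mucosal chemokine CCL28, was at 65.2 to 623 CPM (median 274) in IgG and 483 to 714 CPM (median 607) in IgA, a log2 fold change of −1.36 (SE 0.19, adjusted p = 9.97e-05). It had a UMI in 57.4% of IgG and 86.8% of IgA tumor barcodes. The median depths of these tumor barcodes were 19661 and 17102.5 UMIs, and 9662 and 7769 UMIs outside immunoglobulin genes. Shares of tumor barcodes with a UMI of a gene, here and below, were not corrected for this difference in depth.

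Tnfrsf17 and Tnfrsf13b were lower in IgG as well. Tnfrsf17, which encodes BCMA, a receptor for APRIL and BAFF, was at 0 to 187 CPM with a median of 12.0 in IgG and 141 to 299 CPM with a median of 189 in IgA. It was at 0 in 4 tumors, had a UMI in 18.0% of IgG and 63.7% of IgA barcodes, and its log2 fold change was −2.68 (SE 0.38, adjusted p = 9.97e-05), a fitted value that depends on the prior count where IgG is at 0. Tnfrsf13b, which encodes TACI, a second receptor for these ligands, was at 65.0 to 173 CPM in IgG and 188 to 232 CPM in IgA, with no overlap (log2 fold change −1.02, adjusted p = 0.00227). Sdc1 (−0.96), Cd28 (−1.10), which encodes a costimulatory receptor that plasma cells carry, and Cd79a (−0.72) were also lower. These ranges overlap between the isotypes, and Sdc1 lost its call without colon tumor 7 and Cd28 when any of several single tumors was left out.

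Of 44 tested genes of the secretory pathway and unfolded protein response, 1 passed, a share near the 1.67% of all genes. Txndc5, a disulfide isomerase of the endoplasmic reticulum, was at 414 to 1153 CPM with a median of 797 in IgG and 1851 to 2278 CPM with a median of 2007 in IgA, with no overlap (log2 fold change −1.56, SE 0.15, adjusted p = 2.77e-07). It was detected in 91.8% of IgG and 99.2% of IgA barcodes. The median log2 fold change of the 44 genes was −0.16, against −0.07 over all genes tested. Hspa5, the main chaperone of the endoplasmic reticulum, had a value of −0.01 (adjusted p = 0.999) and Xbp1 one of −0.23 (adjusted p = 0.579).

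Ly6c2 was higher in IgG. It encodes Ly6C, a surface antigen of monocytes and of some lymphocytes. In IgG barcodes it was at 49.5 to 1658 CPM with a median of 511, and in IgA barcodes at 85.3 to 212 CPM with a median of 127. It was higher in IgG in 9 of 10 tumors, with a log2 fold change of 1.86 (SE 0.25, adjusted p = 8.67e-05), and had a UMI in 63.9% of IgG and 31.7% of IgA barcodes. In the fit of 2 tumors it was at 1152 CPM in colon tumor 7 and 634 CPM in colon tumor 9, against 158 and 94.5 CPM in IgA (log2 fold change 2.63, SE 0.19, adjusted p = 0.00027). The leading barcode held 21.1% of its tumor UMIs.

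Other genes higher in IgG had smaller folds. Cd24a, a surface glycoprotein of B lineage and epithelial cells, was at 229 to 826 CPM (median 323) against 160 to 208 CPM (median 188), with no overlap (log2 fold change 0.89, SE 0.17, adjusted p = 0.00388). Ccnd2, which encodes cyclin D2, was at 156 to 447 CPM (median 290) against 109 to 182 CPM (median 148), a log2 fold change of 0.85. Rnf187, a ubiquitin ligase gene, was at 158 to 343 CPM (median 220) against 93.6 to 160 CPM (median 119), a log2 fold change of 0.82. In each of these 3 genes the IgG value exceeded the IgA value in 10 of 10 tumors, and each lost its call without a filter on low counts. Napsa (0.99), Uchl3 (0.66) and AI506816 (0.65) were also higher in every tumor, as the naming rule asks, but Napsa lost its call without colon tumor 9, and Uchl3 and AI506816 lost theirs when any of several single tumors was left out. Cd2, an adhesion molecule of lymphocytes, was higher in 9 of 10 tumors (1.55), and Mef2b, a transcription factor of germinal center B cells, in 8 of 10 (1.49); these 2 were picked from the 15 after their values were seen.

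**Figure D3:**
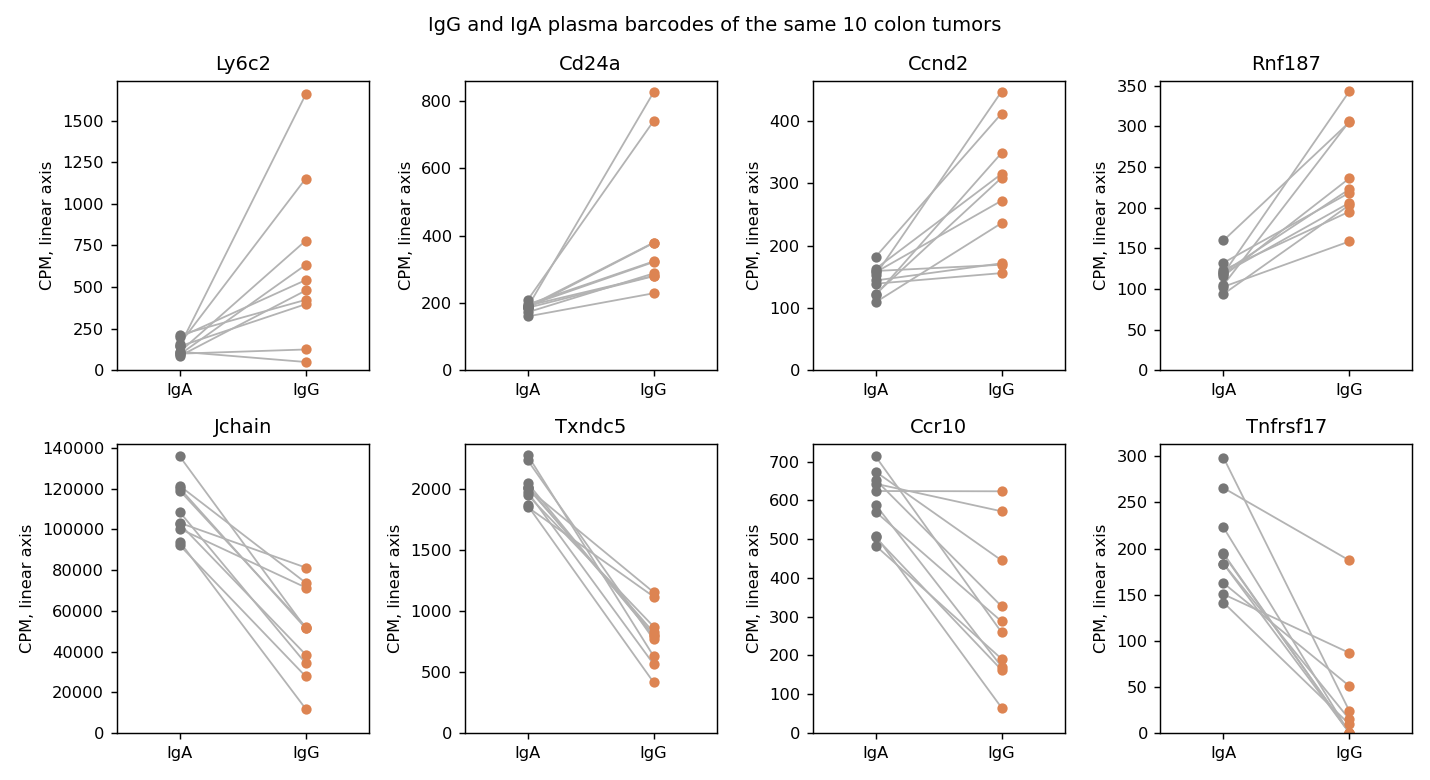
Each panel shows summed CPM (outside immunoglobulin and rule genes) in IgA (grey) and IgG (orange) barcodes of the 10 colon tumors on a linear axis, with a line joining the values of 1 tumor. Ly6c2 lies higher in IgG in 9 of 10 tumors and Cd24a, Ccnd2 and Rnf187 in 10 of 10. Jchain, Txndc5, Ccr10 and Tnfrsf17 lie lower in IgG in 10 of 10, and the ranges of Ccr10 and Tnfrsf17 overlap between the isotypes. The naming rule asked for 1 direction in every tumor, except of Ly6c2 and Ccr10, which came from lists.

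By list, 24 of 29 plasma cell identity genes could be tested, of which 1 rose (Ly6c2) and 5 fell (Jchain, Tnfrsf17, Tnfrsf13b, Cd28 and Sdc1), with a median log2 fold change of −0.24 against −0.07 over all genes. Over all genes tested 0.375% rose and 1.3% fell, the shares beside which the counts of each list stand. Irf4 (−0.46) and Prdm1 (0.13) did not pass. Of 12 homing and adhesion genes, Cd24a rose and Ccr10 and Cd69, a receptor that retains lymphocytes in tissue, fell (median −0.38). Of 14 B cell genes, Cd79a fell (median −0.26). None of 12 interferon genes (median −0.44), 10 isotype regulators (median −0.35) or 17 genes of metabolism and survival (median 0.02) passed. Outside the lists, Ifitm1, an interferon-induced membrane protein gene, was lower in IgG in 10 of 10 tumors, as the naming rule asks. It was at 0 to 130 CPM against 63.1 to 356 CPM (log2 fold change −2.44, adjusted p = 0.000394), with IgG at 0 in 6 tumors. A UMI of Ifitm1 was seen in 14.8% of IgG and 20.2% of IgA tumor barcodes, and 3 barcodes held 81.25% of its UMIs in tumor members. With high doublet scores removed Ifitm1 was not among the genes tested. Adgrl2, an adhesion receptor gene, had 1 IgG UMI over the 10 tumors and was at 27.4 to 48.2 CPM in IgA (−4.54, adjusted p = 0.000394), and both fitted values depend on the prior count. Of 16 stress and immediate early genes, Fos (−1.65), Fosb (−1.02), Ier2 (−1.12) and Junb (−0.86) fell (median −0.59), and of 13 effector genes S100a4 fell (−2.31), a gene that had a UMI in 2 of 61 members. A UMI was seen in fewer IgG than IgA tumor barcodes for Fos (45.9% and 58.4%), Fosb (57.4% and 64.2%) and Ier2 (34.4% and 44.7%). For Junb it was seen in more (63.9% and 60.1%). Ier2 and Junb each lost their call without colon tumor 1, 2, 3 or 6, and S100a4 without any 1 of 8 tumors. Junb also lost its call with RLE scaling and without the tumor block.

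No gene of the cell cycle list passed. Of 18 tested, 17 had a log2 fold change above 0 and 11 an unadjusted p under 0.05, against 1631 and 441 of all 4001 genes. Their median was 0.91, and in the 2 tumors it was −1.05. Pcna, the polymerase clamp, was at 0.93 and Tyms, thymidylate synthase, at 1.32, each with an adjusted p of 0.0515, and Mki67 was at 0.36 (adjusted p = 0.807). A barcode was counted as cycling with UMIs of at least 2 cycle genes after thinning to 3000 UMIs, averaged over 100 draws. The share was 36.4% ± 30.4 (SD, n = 10) in IgG and 24.8% ± 2.80 (SD, n = 10) in IgA, higher in IgG in 7 of 10 tumors, a difference within the spread (exact sign-flip permutation test, p = 0.273, adjusted p = 0.648). IgG shares ranged from 1.5% to 100% over tumors. The difference of 11.6 percentage points was 4.57 without colon tumor 10, which held 2 IgG barcodes, and 3.11 with Ms4a1 allowed. Unthinned shares, pooled over tumors, were 59.0% and 53.3%, and thinned shares were 32.9% of 56 and 24.6% of 3109 barcodes. The median UMIs outside immunoglobulin genes differed by 0.18 on the log2 scale between the isotypes (exact permutation test, p = 0.324, adjusted p = 0.648), and by 0.067 without colon tumor 10.

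**Figure D4:**
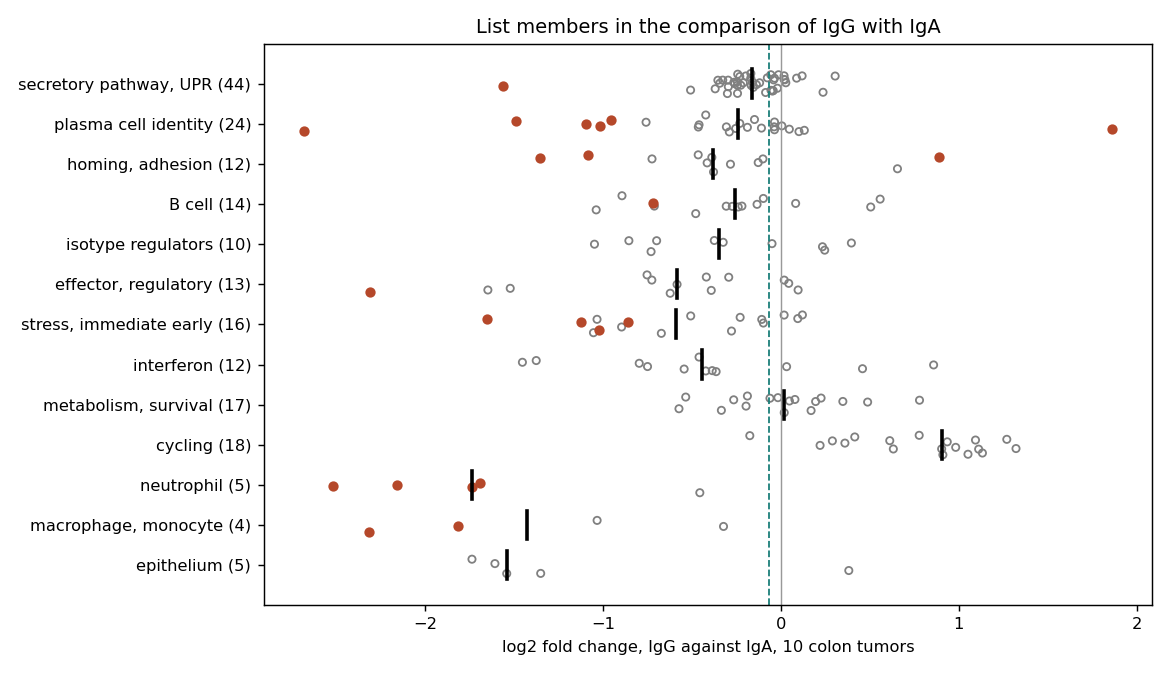
Points are the tested genes of each list (number in brackets) at their log2 fold change of IgG against IgA over 10 colon tumors, filled where the adjusted p was under 0.05, with black bars at list medians and a dashed line at the median of all genes tested. Filled points lie mostly to the left, in plasma cell identity, stress genes and the neutrophil and macrophage lists, and the cycling list has its median at 0.91 with no filled point.

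Summed levels of genes of other cell types differed between the isotypes too, but detection did not follow for all of them. A UMI of S100a8 was seen in 49.2% of IgG and 39.4% of IgA tumor barcodes, and of S100a9 in 50.8% and 47.8%. Retnlg (18.0% and 13.1%) and Apoe (39.3% and 33.7%) were also seen more often in IgG, and Il1b (16.4% and 18.8%) and Lyz2 (24.6% and 28.1%) less often. In tumor members the 3 leading barcodes held 91.3% of the S100a8 and 91.1% of the S100a9 UMIs. Of 5 tested neutrophil genes, S100a8 (−2.16), S100a9 (−2.52), Il1b (−1.74) and Retnlg (−1.69) fell in IgG across the 10 tumors, and of 4 macrophage genes Lyz2 (−2.32) and Apoe (−1.82) fell. After removal of barcodes with high doublet scores, none of S100a8 (−0.020), S100a9 (−0.10), Apoe (−0.10) and Lyz2 (−0.65) passed, with adjusted p of 0.992, 0.94, 0.947 and 0.619, and Il1b and Retnlg were not among the genes tested. With the tumor block left out, S100a8, S100a9, Il1b, Retnlg and Apoe no longer passed, and S100a8, S100a9, Il1b and Retnlg each lost their call without colon tumor 1 or 6. Summed per animal code, S100a8 and S100a9 also lost their calls. The 8 neutrophil markers summed to 65.4 to 5663 CPM (median 296) in IgG and 1168 to 4712 CPM (median 2792) in IgA, and were lower in IgG in 8 of 10 tumors. The 10 macrophage markers were lower in 9 of 10 (median 162 against 834 CPM), the 10 epithelial markers in 9 of 10 (median 73.0 against 460 CPM), and the 8 T cell markers in 9 of 10 (median 5.42 against 50.2 CPM), with Cd4 and Cd8a at 0 in IgG. Epcam, an epithelial adhesion molecule that was counted here in the plasma cell identity list and not among the epithelial markers, was higher in IgG in 7 of 10 tumors and did not pass (log2 fold change 0.047, adjusted p = 0.987). In the 2 tumors S100a9 was instead higher in IgG, at 2638 and 1975 CPM against 931 and 910 CPM (log2 fold change 1.14, adjusted p = 0.0427). A single barcode held 52.9% of the S100a9 and 63.2% of the S100a8 UMIs of tumor members, and G0s2, called higher in the 2 tumors, had 24 UMIs in colon tumor 7, 21 in colon tumor 9 and 1 in colon tumor 2, in 3 barcodes in all. The part of such RNA in the genes above was not tested.

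Other genes called in the 2 tumors follow. Cox4i2, a subunit of cytochrome c oxidase, was at 108 and 214 CPM in IgG and 16.4 and 37.5 CPM in IgA (log2 fold change 2.44, adjusted p = 0.0427), with a UMI in 27.9% of IgG and 7.69% of IgA tumor barcodes. Its call was lost without the tumor block (adjusted p = 0.156), it was not among the genes tested over 10 tumors, and of the 10 tumors it was lower in IgG in 5, with 0 IgG UMIs in colon tumors 2, 4, 6 and 8. Slpi, a secreted protease inhibitor, was at 19797 and 13426 CPM against 3855 and 5117 CPM (1.70, adjusted p = 0.023), and at −0.031 over the 10 tumors. Lgals3 (−4.05), Crip1 (−2.62) and Glipr1 (−1.50) were lower in the 2 tumors, and of these Crip1 also passed over the 10 tumors (−1.43, adjusted p = 0.049). The Lgals3 value rests on 2 IgG UMIs, with 0 in colon tumor 9, and depends on the prior count. Over the 10 tumors IgG was the higher in 2 for Lgals3 (436 against 270 CPM in colon tumor 4), in 3 for Crip1 (2276 against 435 CPM in colon tumor 8) and in 2 for Glipr1 (2869 against 725 CPM in colon tumor 10). The call of Crip1 in the 2 tumors was lost when summed per animal code, with an isotype share of at least 5% and with Ms4a1 allowed. In Crip1 1 barcode held 67.6% of the UMIs of tumor members.

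The 14 mucosa members, with 67693 UMIs outside immunoglobulin and rule genes, entered no fit. Txndc5 was at 576 CPM in IgG and 1179 CPM in IgA mucosa barcodes, lower in 3 of 3 libraries. Ccr10 (118 against 255 CPM), Tnfrsf17 (7 UMIs, 103 CPM), Tnfrsf13b and Cd28 (2 UMIs) were also lower in 3 of 3. Cd24a (443 against 260 CPM) and Ccnd2 (502 against 193 CPM) were higher in 3 of 3, and Jchain (31702 against 51706 CPM) was lower in 2 of 3. Some genes went the other way. Fos (635 against 383 CPM) and Junb (295 against 123 CPM), lower in IgG in tumors, were higher in 3 of 3 mucosa libraries, and Sdc1 (177 against 129 CPM), Cd79a (1448 against 1194 CPM) and Fosb (236 against 128 CPM) in 2 of 3. Klf6, lower in IgG in 10 of 10 tumors (log2 fold change −1.46), was also higher in 2 of 3 (103 against 63.6 CPM, 7 IgG UMIs). Ly6c2 had 2 UMIs in the mucosa members, 29.5 CPM with an exact 95% Poisson interval of 3.58 to 107 CPM for counting error only, against 130 CPM in IgA, and was lower in 3 of 3 libraries. Of the genes called in tumors, 10 of the 15 higher (66.7%) and 33 of the 52 lower (63.5%) had the same direction in mucosa, against 44.7% and 53.0% of all tested genes that leaned up or down in tumors.

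Among the subclasses, Ly6c2 had a UMI in 17 of 30 Ighg2c members (740 CPM), 13 of 17 Ighg1 members (514 CPM) and 11 of 27 Ighg2b members (416 CPM), pooled over libraries. Ccr10 was at 158 CPM in Ighg2c, 310 CPM in Ighg1 and 229 CPM in Ighg2b members, and Jchain at 46619, 52034 and 41474 CPM. These CPM values keep the rule genes in the total. With a few members of each subclass in a library they were not tested.

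The condition on Ms4a1 removed a larger share of IgG than of IgA barcodes. Without it, 42 of 117 IgG barcodes (35.9%) and 182 of 3897 IgA barcodes (4.67%) carried an Ms4a1 UMI. In tumors the counts were 38 of 99 (38.4%) and 149 of 3543 (4.21%), with IgG higher in 9 of 10 tumors. The IgG barcodes with Ms4a1 had a median of 2 and at most 9 of its UMIs, 2 of the 42 had a high doublet score, and Pax5 and Cd22 were each found in 2.38% of them. These shares concern a gene of the rule and were not tested.

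**Figure D5:**
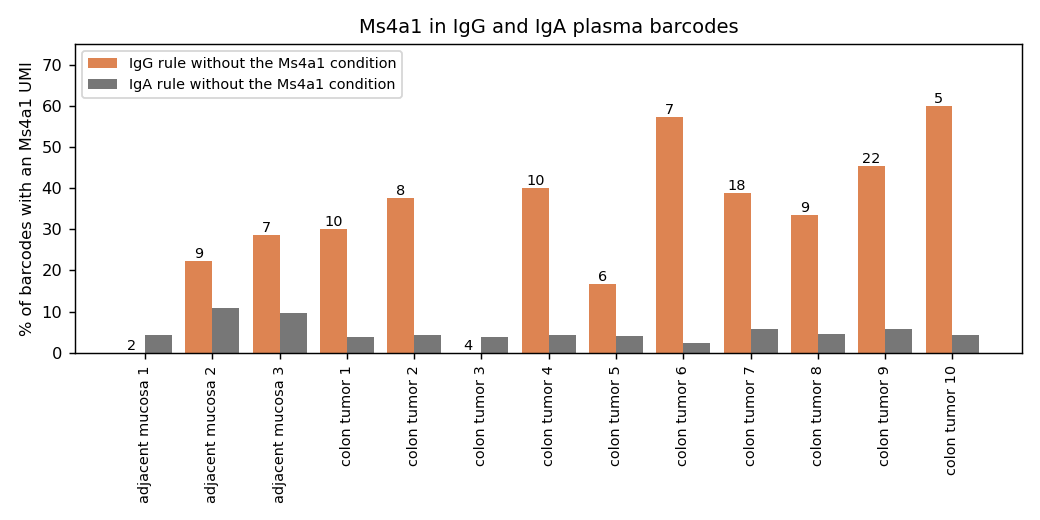
Bars give the percent of barcodes with at least 1 Ms4a1 UMI in each library for the IgG (orange) and IgA (grey) rules without the Ms4a1 condition, and the numbers above the orange bars are the IgG barcodes. IgG bars lie above IgA bars in 9 of 10 tumors, the exception being colon tumor 3 with 0 of 4.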

How the data were processed

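The deposited files hold raw UMI counts per gene and barcode from 13 10x libraries, which the authors made with Cell Ranger 6.0.0 on mm10 according to the submitters' processing notes, while the methods of the study name another version. Depth was 57221300 to 116133079 UMIs per library. No column was left unmapped. Groups, ages and animal codes came from the labels, and the animal code in the titles pairs tumors with mucosa and was the block for shares. Tumors of 1 code are not separate animals, so p-values measure the spread between libraries.

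UMIs were summed per library and isotype, without 390 immunoglobulin genes and without Mzb1, Ms4a1 and Cd3e, and tested with edgeR 4.0.16 (quasi-likelihood, library as block, TMM) in R 4.3.3. Shares were tested by exact permutation in Python 3.11.15 with numpy 2.4.6 and scipy 1.17.1, and doublets were scored with scikit-learn 1.9.0 and removed as an alternative. DESeq2 1.42.0, other filters, thresholds and normalization, and leaving out each library were alternatives, and the scripts were tested on simulated data. The fit over all 10 tumors, the gates that allow Ms4a1 and thinning averaged over 100 draws, after a single draw was seen to vary, were chosen after seeing the data. Named genes were the 10 largest changes each way among genes with an adjusted p under 0.05, at least 20 CPM in an isotype and the same sign in every library, and called or defining members of 19 lists. Members and lists were chosen with earlier results of these data known.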

Additional observations from a re-analysis of the deposited data

Results flagged for a closer look

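Over 39 groups of libraries examined for a single value far from the others, 8 were found. The criterion gives about 1 in 20 for normally distributed values, which low counts are not. Colon tumor 9 had an IgG share of plasma barcodes of 3.72%, with the next tumor at 2.24%. Colon tumor 4 stood above the other tumors in the IgG level of Fos (686 CPM, next 343), Ier2 (156 CPM, next 73.5), Il1b (592 CPM, next 186), S100a4 (218 CPM, next 0) and Tnfrsf17 (187 CPM, next 86.7). Its IgG sum held 32082 UMIs, of which 22 were Fos, 19 Il1b, 7 S100a4 and 5 Ier2, so these levels rest on low counts. Colon tumor 7 stood above the others in S100a8 (2305 CPM, next 1071) and in Adgrl2 (9.00 CPM, from 1 UMI, next 0). Uchl3 was higher in IgG than in IgA in 10 of 10 tumors and lower in 3 of 3 mucosa libraries, where it rested on 3 UMIs and was at −1.40 on the log2 scale (IgG against IgA, pseudocount of 10 CPM). The difference between the tissues was not tested.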

How the results depend on the processing

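The number of genes called in the 2 tumors, 13, became 63 without a filter on low counts, 28 with immunoglobulin genes kept, 213 summed per animal code, 67 over all 10 tumors, 23 with an isotype share of at least 5%, 24 with under 10% mitochondrial UMIs and 65 with Ms4a1 allowed. The number over 10 tumors, 67, became 698 without a filter, 213 summed per animal code and 123 with Ms4a1 allowed, and ranged from 47 to 121 with each tumor left out in turn (101 without colon tumor 4, 121 without colon tumor 10, where more genes were tested). The cause of these moves was not tested.

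With each library left out in turn, the difference in the IgG share of kept barcodes ranged from −0.00318 (without colon tumor 9) to 0.0315 percentage points, and that in the share of plasma barcodes from −3.37 to −1.36 points. With Ms4a1 allowed the former was 0.0464 points (exact permutation test, p = 0.36) and the latter −1.37 points (exact permutation test, p = 0.173). The lambda difference in the 2 tumors turned from 5.54 to −2.53 points with Ms4a1 allowed. S100a9, higher in the 2 tumors, was at −0.83 summed per animal code, −1.01 with Ms4a1 allowed and −2.52 over 10 tumors, and G0s2 and Slpi were at −0.46 and −0.031 over 10 tumors.

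Of the 13 genes named in the 2 tumors, 3 kept their call in every alternative that gave a value (Ly6c2, Ccr10 and Txndc5), and of the 34 named over 10 tumors, 11 did (Ly6c2, Txndc5, Jchain, Ccr10, Tnfrsf17, Tnfrsf13b, Cd69, Fos, Klf6, Ifitm1 and Adgrl2). Ifitm1 gave no value with high doublet scores removed, so its call was not checked there. Cd24a lost its call without a filter and with at least 10 Mzb1 UMIs, Ccnd2 and Rnf187 without a filter, Sdc1 without colon tumor 7, Napsa without a filter and without colon tumor 9, and Cd79a and Fosb with Ms4a1 allowed. Uchl3, Cd28, AI506816, Junb, Ier2, S100a4, S100a8, S100a9, Il1b, Retnlg, Emb and Tpm4 lost theirs without single tumors. With high doublet scores removed, 76 genes were called over 10 tumors, 43 of them among the 67, and Lyz2, Apoe, S100a8, S100a9, Junb, Tpm4, Uchl3 and AI506816 lost their calls.

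Without the replicate block the plasma share differed by −2.46 points (exact permutation test, p = 0.00699), the gene counts were 16 in the 2 tumors and 65 over 10, of which 12 and 46 were shared with the blocked fits. Removing high doublet scores, at least 20 barcodes and leaving out a tumor could not be fitted with 2 tumors, and no gene test of tumor against mucosa was run because no mucosa library held 10 IgG barcodes. The small IgG depth per tumor limits genes of low level.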

Other observations

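The 38 IgG tumor barcodes with Ms4a1, which were outside the rule, shared part of the pattern. Pooled and set beside the 149 IgA barcodes with Ms4a1, they held Ly6c2 at 1031 against 209 CPM, Txndc5 at 891 against 1818 CPM, Jchain at 58609 against 91793 CPM, Ccr10 at 151 against 375 CPM and Tnfrsf17 at 37.7 against 141 CPM. Ccnd2 (369 against 203 CPM), Rnf187 (232 against 118 CPM) and Cox4i2 (572 against 142 CPM) were also higher in IgG. Other genes differed less or went the other way, with Cd24a at 305 against 268 CPM, Fos at 331 against 346 CPM, Sdc1 at 206 against 187 CPM, Cd69 at 136 against 143 CPM, Cd79a at 1597 against 1617 CPM, and Uchl3 at 87.1 against 129 CPM. Mki67 was at 31.9 against 118 CPM. These are pooled values with no test, and their CPM keeps the rule genes in the total.

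A pair of Ighg2b barcodes with Igha came from the same 24-week animal. The barcode of colon tumor 5 with 621 Igha UMIs and that of adjacent mucosa 2 with 577 Igha UMIs both had Igkv3-2 as their leading light chain gene and Ighv3-6 as their most counted heavy chain gene, the latter from 1 UMI in the mucosa barcode. The same pair of genes was seen in 22 IgA barcodes of that animal.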
